A study of Mus musculus with 12 samples.

Results

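The response of control marrow progenitors to 24 h of GM-CSF was measured on 6 of the 12 arrays of a study of mouse hematopoietic stem and progenitor cells. The 6 arrays were taken by their titles: 3 of cells carrying the empty MigR1 retroviral vector with no GM-CSF (Mig) and 3 of the same kind of cells given GM-CSF (Mig+GM). Bone marrow of C57BL/6J mice gave the lineage-negative cells, whose culture in StemSpan held 15% serum, IL-3, SCF and FLT3 ligand, and every group was transduced for 24 h. The cells were then washed and kept in StemSpan without or with 10 ng/ml recombinant mouse GM-CSF for another 24 h, which makes 48 h of vector expression in every group. The labels do not state whether IL-3, SCF and FLT3 ligand were kept after the wash. Cells that were GFP-positive, lineage-negative and c-Kit-positive were sorted, and their total RNA was measured on BeadChips of the Mouse Ref-8 type (Illumina, v2.0). The other 6 arrays held cells with RUNX1-ETO (RE), the fusion protein of a common acute myeloid leukaemia translocation, without or with the same GM-CSF, and they are used here only to test whether a change differed between the 2 kinds of cells. The comparison of Mig+GM with Mig gives the GM-CSF response of cells without the fusion protein.

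Granulocytes, macrophages and dendritic cells all depend in part on GM-CSF for growth or maturation. GM-CSF binds an alpha chain particular to GM-CSF and a beta chain shared with the IL-3 and IL-5 receptors, and the complex signals through JAK2 to STAT5 and through the RAS-ERK pathway. STAT5 induces its own inhibitors of the SOCS family, and GM-CSF is known to induce the nuclear receptor PPARG in lung macrophages.

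The mean deposited signal of the 6 arrays lay between 410 and 597, with the highest value on the array of Mig replicate 1, and 52.5 to 59.6% of probes were above the background estimated on each array. A unit is a gene, represented by its brightest probe, or a probe with no gene name: 10769 units were tested, 9909 of them named genes. The replicate numbers of the titles were treated as pairs. Arrays with the same number deviated from their group means together (correlations across units of 0.63, 0.63 and 0.71 for numbers 1, 2 and 3). Arrays with different numbers correlated between -0.48 and -0.17, but centring each group on its own mean pushes these values below 0. They are therefore not separate evidence for the pairing. The pair numbered 1 stood apart. The summed signal of the monocyte and macrophage markers was 70892 in Mig and 53979 in Mig+GM of pair 1, against 22827 to 24951 on the other 4 arrays, and the dendritic cell, eosinophil and secondary granule marker sums were also highest in both arrays of pair 1. No label ties the replicates to different animals or cultures. The p-values therefore cover the spread among these arrays and no more, a spread that may be technical, and the small number of arrays limits every value. The sorted identity could be checked only in part: the annotation held no probe for Kit, Cd34 was above background on all 6 arrays, and 18 of 32 lymphoid marker genes on the array did not pass the filter on dim probes.

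In the fit paired by replicate number, 129 units were higher with GM-CSF (1.2% of those tested) and 55 were lower (0.511%), 184 in all (1.71%). Named genes made up 121 of the rises and 52 of the falls. At an unadjusted p under 0.05 in limma, 766 of all units were higher and 818 lower. The median change of the called units was 0.64 on the log2 scale for rises and -0.67 for falls, and 27 rises and 6 falls reached 2-fold. All 184 moved the same way in each of the 3 pairs, as did 17.2% of all units upward and 19.4% downward. Only 104 of the 184 had Mig+GM arrays that did not overlap the Mig arrays, against 9.89% of all units. The counts depended heavily on the pairing, on the scaling and on which pairs were fitted. With no replicate block limma called 0 units in either direction (270 higher and 267 lower at an unadjusted p under 0.05), and its smallest adjusted p was 0.711. With the arrays scaled to one median 3 units were called higher and 0 lower, and the median of all units moved from -0.01 to -0.10. Leaving out pair 2 left 6 rises (Lpl, Tlr2, Dab2, Batf3, Gpr84 and Smpdl3b) and 0 falls, with 638 falls at an unadjusted p under 0.05, leaving out pair 1 gave 157 and 66, and leaving out pair 3 gave 305 and 287. Fits without a pair have fewer residual degrees of freedom, so these counts also depend on how limma moderates the variances. They cannot be read as a property of the pair left out alone. In the authors' own normalized values with 50 added, 0 units were called (775 higher and 708 lower at an unadjusted p under 0.05, smallest adjusted p 0.0803). The 50 was added to the authors' values without the background step of the main fit. The log2 change of Batf3 was 1.27 there, 1.63 in the main fit and 1.65 in the authors' values with nothing added. That of Adgre1 was 0.58 there, 0.56 in the main fit and 0.61 with nothing added, so changes were not smaller for every gene. The part of this step in the loss of calls was not tested. With nothing added, 97 units were called higher and 36 lower. Under each of these alternatives, every one of the 184 kept its sign. That outcome was largely set beforehand, because all 184 moved the same way in every pair, and it is no separate support.

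**Figure D1:**
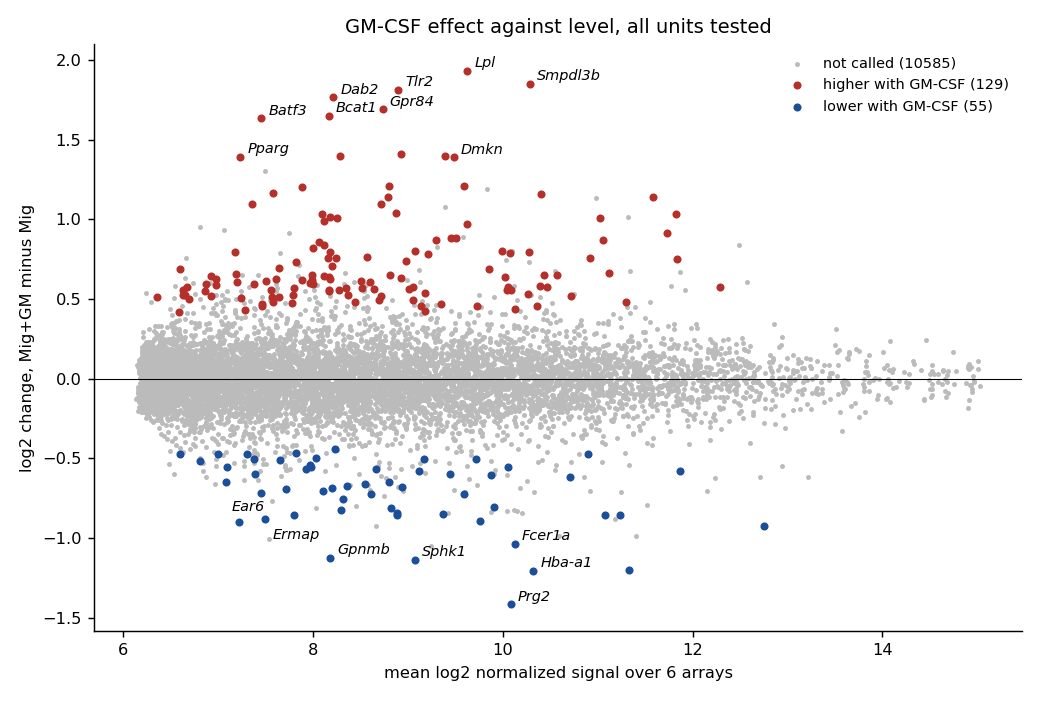
Each point is a unit, with the mean log2 normalized signal of the 6 arrays on the x axis and the log2 change (Mig+GM minus Mig, paired fit) on the y axis. The 129 called rises reach 1.93 (Lpl) and the 55 called falls reach -1.42 (Prg2), while the 10585 units not called centre on -0.01.

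Of the receptors and their relatives, Csf2ra alone was called, and it kept its call in only 6 of 16 alternative settings. The call was lost without pair 1 and without pair 2. Csf2ra encodes the alpha chain that binds GM-CSF, and it read 7.95, 6.89 and 7.17 on the Mig arrays and 8.59, 7.36 and 7.50 on the Mig+GM arrays (log2 normalized signal, replicates 1 to 3 here and below). Each Mig+GM array was above its own pair's Mig array, but the groups overlapped because both arrays of pair 1 were high. Csf2ra was 1.40-fold higher with GM-CSF (log2 change ± SE 0.48 ± 0.09, adjusted p = 0.0449, limma with Benjamini-Hochberg adjustment, 3 pairs, as for every later adjusted p). The shared beta chain Csf2rb (-0.13 ± 0.11, adjusted p = 0.684), its mouse IL-3-specific relative Csf2rb2 (-0.42 ± 0.14, adjusted p = 0.201) and the IL-3 receptor alpha chain Il3ra (-0.17 ± 0.10, adjusted p = 0.522) did not pass the test. Csf2rb and Csf2rb2 are near-identical, so their probes may not tell them apart. Of 17 tested cytokine receptor genes 1 was higher and 0 lower, against 1.2% and 0.511% of all units. At an unadjusted p under 0.05 in limma, 5 were higher and 4 lower. Their median was -0.04, against -0.01 over all units. None of the 19 tested JAK-STAT signal proteins was called by limma (at an unadjusted p under 0.05, 1 was higher and 3 were lower).

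Some negative feedback genes of STAT5 rose. Cish, a SOCS-family inhibitor that STAT5 induces, read 9.87, 9.29 and 9.87 on the Mig arrays and 10.54, 10.26 and 10.60 on the Mig+GM arrays. The lowest Mig+GM array was above the highest Mig array. Cish was 1.73-fold higher (0.79 ± 0.09, adjusted p = 0.0117). Socs2, another inhibitor of the family, read 9.88, 9.76 and 9.79 on the Mig arrays and 10.73, 10.16 and 10.21 on the Mig+GM arrays. The groups did not overlap, and Socs2 was 1.47-fold higher (0.56 ± 0.11, adjusted p = 0.0449). Pim3, a survival kinase, and Xbp1, a transcription factor of the secretory pathway, rose as well, 1.57-fold and 1.49-fold. Of 26 tested genes of the STAT5 target and feedback list 5 rose and 1 fell, against 1.2% and 0.511% of all units. The list's median was 0.12. The list gene that fell was Gadd45g, a stress sensor, 1.496-fold lower (-0.58 ± 0.11, adjusted p = 0.0423), and another of its probes was not called. Pim1 (0.44 ± 0.10, adjusted p = 0.0599), Socs3 (0.36 ± 0.08, adjusted p = 0.0782), Socs1 (0.07 ± 0.08, adjusted p = 0.777), the survival gene Bcl2l1 (0.06 ± 0.08, adjusted p = 0.837) and Myc (0.13 ± 0.09, adjusted p = 0.605) missed the threshold. Without pair 2, 0 genes of this list were called, and the same held with arrays scaled to one median.

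STAT5 binds the palindrome TTCNNNGAA, which reads the same on both strands. RefSeq's table held upstream sequence for 11 of the 15 largest rises and 12 of the 15 largest falls. Among these genes, the 250 bases before an annotated transcript start held it in Dab2, Batf3 and Sphk1, and those 3 stretches are printed because these genes carry large changes. None of the 3 is on the STAT5 target list. Dab2 encodes an endocytic adaptor, Batf3 a transcription factor needed by cross-presenting dendritic cells, and Sphk1 the kinase that makes sphingosine 1-phosphate. The sequences are RefSeq's (GRCm38.p6), 5′ to 3′ toward the transcript start, with the motif in capitals.
Dab2 (chr15:6299539-6299788, plus strand, motif beginning 72 bases before the start): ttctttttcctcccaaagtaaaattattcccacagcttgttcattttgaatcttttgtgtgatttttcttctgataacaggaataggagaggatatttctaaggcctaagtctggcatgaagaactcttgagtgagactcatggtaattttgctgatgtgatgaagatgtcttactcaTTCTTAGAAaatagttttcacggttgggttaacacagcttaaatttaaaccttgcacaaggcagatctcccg
Batf3 (chr1:191098164-191098413, plus strand, 239 bases before): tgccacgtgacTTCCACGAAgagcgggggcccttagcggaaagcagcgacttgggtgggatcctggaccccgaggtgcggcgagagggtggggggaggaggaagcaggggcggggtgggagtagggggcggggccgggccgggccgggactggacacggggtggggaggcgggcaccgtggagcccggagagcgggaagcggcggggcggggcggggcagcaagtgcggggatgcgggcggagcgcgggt
Sphk1 (chr11:116531587-116531836, plus strand, 41 bases before): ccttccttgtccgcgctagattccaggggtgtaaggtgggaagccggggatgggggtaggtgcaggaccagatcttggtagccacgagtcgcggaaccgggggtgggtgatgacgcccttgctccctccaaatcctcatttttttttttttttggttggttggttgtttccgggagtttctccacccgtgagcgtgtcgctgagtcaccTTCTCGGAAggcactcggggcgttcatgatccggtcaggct
Dab2 read 8.36, 6.42 and 7.21 on the Mig arrays and 10.38, 8.19 and 8.71 on the Mig+GM arrays, and Batf3 read 7.21, 6.19 and 6.51 on the Mig arrays and 8.85, 7.68 and 8.28 on the Mig+GM arrays. Both rose in every pair. The Batf3 groups did not overlap, while those of Dab2 did, since the Mig array of pair 1 was above the Mig+GM array of pair 2. Dab2 was 3.40-fold higher (1.77 ± 0.11, adjusted p = 3.76e-04) and Batf3 3.10-fold higher (1.63 ± 0.09, adjusted p = 3.55e-04). The Mig array of pair 2 had Batf3 under background, and the 5 other arrays of the comparison had it above. The match of Sphk1 also lies 115 bases before another annotated start. The remaining annotated starts searched for Dab2 and Sphk1 had no match. Sphk1 fell and is described with the erythroid genes. The motif was in 8.13% of all 27025 genes with an upstream sequence, in 7.59% of the named genes tested that had one, in 11 of 95 genes called higher (11.6%) and in 3 of 43 called lower (6.98%). In the window searched 3 of 17 STAT5 list genes had a match (Bcl6, Fgl2 and Socs3, none of them called), and the called list genes Cish, Pim3, Xbp1 and Gadd45g had none. A match describes the letters only.

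Immediate-early genes of the ERK pathway rose in part. Egr1, a transcription factor induced within minutes of ERK activation, read 9.79, 8.86 and 11.66 on the Mig arrays and 10.22, 9.56 and 12.27 on the Mig+GM arrays. The treated array was higher in each pair, but the level in pair 3 was far above the others in both groups, so the groups overlapped. Egr1 was 1.49-fold higher (0.58 ± 0.09, adjusted p = 0.0224). Plaur, the urokinase receptor, was 1.76-fold higher (0.82 ± 0.14, adjusted p = 0.0318), and Ier3, a stress-response gene, and Jun, an AP-1 subunit, were 1.55-fold and 1.43-fold higher. In all 5 of 23 tested members rose and 0 fell, against 1.2% and 0.511% of all units, with a median of 0.22. The ERK phosphatase Dusp6 was not called (-0.20 ± 0.10, adjusted p = 0.417). In the MYC-induced list limma called 0 of 42 genes (4 higher and 0 lower at an unadjusted p under 0.05), with a median of 0.05 that was -0.11 with arrays scaled to one median. In the S phase and mitotic list it called 0 of 39 (1 higher and 5 lower at an unadjusted p under 0.05), with a median of -0.10. In all 3 pairs 19 of the 39 were lower and 2 higher, against 19.4% and 17.2% of all units. The list's median was -0.30 with arrays scaled to one median, which by itself lowered the median of all units to -0.10.

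Genes of lipid uptake and storage held the rise of greatest size. Lpl, the lipase that frees fatty acids from lipoproteins, read 10.12, 7.87 and 7.98 on the Mig arrays and 12.45, 9.35 and 9.97 on the Mig+GM arrays. Every pair rose, and the groups overlapped only because pair 1 was well above the others in both. Lpl was 3.82-fold higher (1.93 ± 0.14, adjusted p = 9.46e-04). Pparg, the nuclear receptor of lipid metabolism, read 6.67, 6.35 and 6.61 on the Mig arrays and 8.81, 7.32 and 7.67 on the Mig+GM arrays. Its 3 Mig+GM arrays were all above the Mig arrays, with pair 1 rising most, and it was 2.62-fold higher (1.39 ± 0.20, adjusted p = 0.0173). A second Pparg probe was called as well. Fabp5, a fatty acid carrier, and Plin2, a coat protein of lipid droplets, were 1.54-fold and 1.44-fold higher. These 4 of 11 tested list members rose and 0 fell, against 1.2% and 0.511% of all units, with a median of 0.10. Outside the list, Dgat2, which completes triglyceride synthesis, rose 2.64-fold, Acot1, a cytosolic acyl-CoA thioesterase, rose 2.31-fold, and Gpr84, a receptor for medium-chain fatty acids, rose 3.22-fold. Another Acot1 probe was not called. Smpdl3b, a lipid-modifying phosphodiesterase of macrophages, read 10.06, 7.98 and 10.04 on the Mig arrays and 11.61, 10.77 and 11.26 on the Mig+GM arrays. The groups did not overlap, pair 2 rose most, and Smpdl3b was 3.61-fold higher (1.85 ± 0.24, adjusted p = 0.0140). Flt1, a receptor of VEGF, Serpinf1, a secreted serpin, and Snx24, a sorting nexin, rose 2.65-fold, 2.63-fold and 2.30-fold, each without overlap. None of the 28 cholesterol and fatty acid synthesis genes was called, with a median of 0.09 that was -0.08 with arrays scaled to one median (3 higher and 1 lower at an unadjusted p under 0.05 in limma). Without pair 2, Lpl alone of the lipid uptake list was called.

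**Figure D2:**
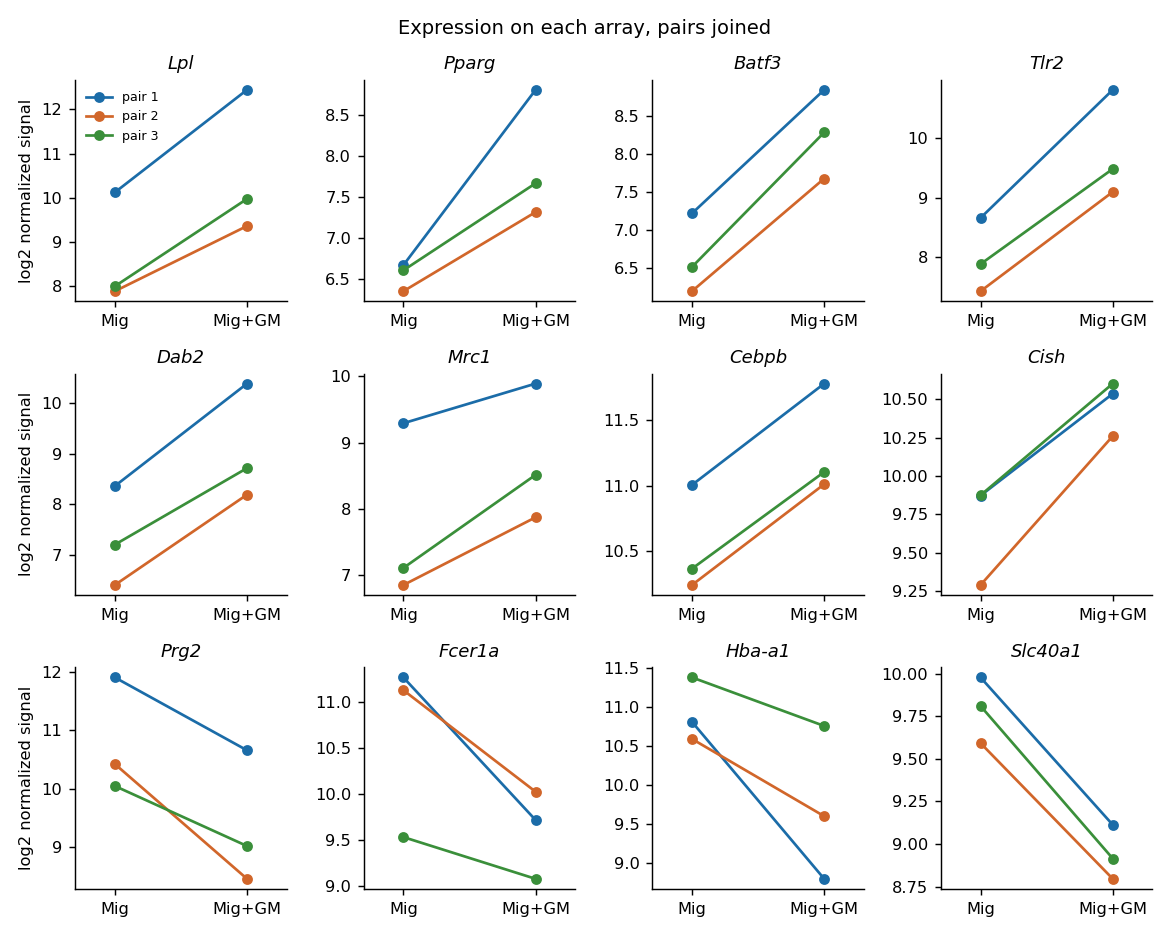
Log2 normalized signal of 12 genes (y axis) on each Mig and Mig+GM array (x axis), with lines joining arrays of one replicate number. All 3 lines rise for the 8 genes from Lpl to Cish and fall for the 4 genes from Prg2 to Slc40a1, while the distance between lines (pair 1 apart for Lpl and Mrc1, pair 3 for Hba-a1) is as large as the change for several genes.

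Markers of macrophages moved in both directions. Tlr2, a receptor for bacterial lipoproteins, read 8.66, 7.42 and 7.88 on the Mig arrays and 10.82, 9.10 and 9.49 on the Mig+GM arrays. The groups did not overlap, and Tlr2 was 3.51-fold higher (1.81 ± 0.12, adjusted p = 3.85e-04). Mrc1, the mannose receptor, read 9.29, 6.85 and 7.11 on the Mig arrays and 9.89, 7.87 and 8.51 on the Mig+GM arrays. It rose in each pair, but both arrays of pair 1 were above all others, and the change was 2.01-fold (1.01 ± 0.14, adjusted p = 0.0153). Cd14, the lipopolysaccharide co-receptor, above background on 2 of 3 Mig arrays, rose 1.57-fold and Adgre1, which encodes F4/80, rose 1.47-fold, with other Adgre1 probes not called. Gpnmb, a lysosomal glycoprotein of macrophages, fell 2.18-fold (-1.13 ± 0.22, adjusted p = 0.0449), and another of its probes was not called. Of 29 tested monocyte and macrophage genes 5 rose and 1 fell, against 1.2% and 0.511% of all units. Their median of 0.14 became -0.05 with arrays scaled to one median. The summed marker signal did not move one way: it went from 70892 to 53979 in pair 1, from 22827 to 22906 in pair 2 and from 23296 to 24951 in pair 3. In all, 10 of the 39 marker genes on the array did not pass the filter. The part of pair 1 in these changes was not tested beyond leaving it out, when 5 members rose and 1 fell. Without pair 2, Tlr2 alone was called.

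Besides Batf3, the dendritic cell list held 1 more rise, Clec10a, a lectin receptor (1.40-fold, 0.49 ± 0.08, adjusted p = 0.0319). Thus 2 of 28 tested members rose and 0 fell, against 1.2% and 0.511% of all units, with a median of 0.23. The summed marker signal was higher with GM-CSF in all 3 pairs (31559 to 34636, 10067 to 12476 and 11946 to 16788). Irf8, a transcription factor of dendritic cells and monocytes, missed the threshold (0.43 ± 0.09, adjusted p = 0.0575). Itgax, Zbtb46, Xcr1 and Clec9a, defining markers of conventional dendritic cells, did not pass the filter.

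Of 32 tested myeloid transcription factors 6 rose and 0 fell, against 1.2% and 0.511% of all units, with a median of 0.13. The lists share genes, so their counts are not independent. The largest rise here was that of Pparg, already counted in the lipid uptake list, and Cebpb is counted again with the ATF4 genes. Cebpb, a factor of emergency granulopoiesis and macrophages, read 11.004, 10.24 and 10.37 on the Mig arrays and 11.78, 11.01 and 11.10 on the Mig+GM arrays. The shift was nearly the same in all 3 pairs and the groups did not overlap, though only narrowly. Cebpb was 1.69-fold higher (0.76 ± 0.08, adjusted p = 0.00910). The lineage factors Spi1 (0.32 ± 0.10, adjusted p = 0.173), Cebpa (0.05 ± 0.11, adjusted p = 0.891), Cebpe (0.55 ± 0.13, adjusted p = 0.0782), Gfi1 (0.59 ± 0.19, adjusted p = 0.186) and Runx1 (-0.29 ± 0.11, adjusted p = 0.256) were not called. Granule genes of promyelocytes were uneven. Elane, neutrophil elastase, read 12.52, 9.98 and 12.10 on the Mig arrays and 13.16, 11.57 and 11.88 on the Mig+GM arrays. It was higher in pairs 1 and 2 and lower in pair 3, with overlapping groups (0.67 ± 0.26, adjusted p = 0.270), and myeloperoxidase, Mpo, did not pass either (0.08 ± 0.16, adjusted p = 0.890). In the primary granule and promyelocyte list 2 of 21 rose and 1 fell (median 0.15, and -0.01 with arrays scaled to one median). Dmkn, a secreted epithelial protein, rose 2.62-fold, and Trem3, an activating receptor of mouse myeloid cells, rose 2.31-fold. Nkg7, a granule protein of cytotoxic cells, fell 1.39-fold. List members were chosen with earlier results of these data known, so this count is no separate support for a change of granule genes. Of 21 secondary and tertiary granule genes 0 rose and 1 fell, Anxa1 (1.57-fold), an anti-inflammatory lipid-binding protein.

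Metabolic and inflammatory genes added single members. Over all units 1.2% were called higher and 0.511% lower, so a single call in a list says little about that list. Bcat1, the cytosolic branched-chain aminotransferase, read 7.19, 7.07 and 7.76 on the Mig arrays and 9.20, 9.01 and 8.76 on the Mig+GM arrays. The groups did not overlap, and Bcat1 was 3.14-fold higher (1.65 ± 0.18, adjusted p = 0.00910), although 2 other probes of the gene were not called. With Cebpb, Mthfd2 (mitochondrial folate enzyme, 1.37-fold) and Phgdh (first enzyme of serine synthesis, 1.35-fold), 4 of 26 tested ATF4 and amino acid genes rose and 0 fell, with a median of 0.15 that was -0.01 with arrays scaled to one median. Egln3, a hypoxia-induced prolyl hydroxylase, and the glycolytic enzyme Pgam1 rose 1.74-fold and 1.37-fold, 2 of 26 glycolysis and hypoxia genes. Pgam1 (adjusted p = 0.0495) kept its call in only 3 of 16 alternative settings. Among 32 chemokine, cytokine and NF-kB genes, Nfkbia, the inhibitor of NF-kB, rose 1.43-fold. The inflammatory cytokine gene Tnf was under background on all 3 Mig arrays and above it on all 3 Mig+GM arrays, at least 1.29-fold higher (a lower bound, adjusted p = 0.0430). Tnf passed the filter on dim probes only through the Mig+GM arrays, so it could be called in no other direction and is no support for a change of this list. Of 38 interferon-stimulated genes 1 rose, Oas1g (1.49-fold), an antiviral enzyme gene with near-identical copies and with other probes not called. Cytosolic ribosomal protein genes (0 of 33 called, median 0.02; 1 higher and 1 lower at an unadjusted p under 0.05 in limma) had no call, and Actb (-0.03 ± 0.08, adjusted p = 0.917) and Gapdh (0.16 ± 0.08, adjusted p = 0.423) were not called.

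Some genes of erythroid cells, of mast cells and basophils, and of eosinophils fell with GM-CSF. Hba-a1, an alpha globin gene with a near-identical copy, read 10.81, 10.59 and 11.38 on the Mig arrays and 8.80, 9.60 and 10.76 on the Mig+GM arrays. Each pair fell, most in pair 1, but the groups overlapped because pair 3 was high in both. Hba-a1 was 2.31-fold lower (-1.21 ± 0.21, adjusted p = 0.0346). Sphk1 read 9.45, 9.32 and 10.16 on the Mig arrays and 7.73, 8.48 and 9.31 on the Mig+GM arrays. The groups narrowly did not overlap, and Sphk1 was 2.20-fold lower (-1.14 ± 0.16, adjusted p = 0.0173). Ermap, an erythrocyte membrane protein, and Blvrb, a biliverdin reductase of red cells, were 1.84-fold and 1.81-fold lower, and another Ermap probe was not called. Blvrb (adjusted p = 0.0430) kept its call in only 5 of 16 alternative settings. Of 26 tested erythroid genes 5 fell and 0 rose, against 0.511% of all units called lower. In all 3 pairs 22 were lower, against 19.4% of all units, and the median was -0.43. Their summed signal was 50361, 55626 and 57913 in Mig and 31160, 45271 and 48602 in Mig+GM, and the groups did not overlap. The erythroid genes Add2, Alas2, Dmtn, Epb42, Rhd and Slc4a1 did not pass the filter. Slc40a1, the iron exporter ferroportin, lay outside the list and read 9.98, 9.59 and 9.81 on the Mig arrays and 9.11, 8.80 and 8.91 on the Mig+GM arrays. It fell by nearly the same amount in each pair, 1.81-fold (-0.85 ± 0.08, adjusted p = 0.00629), with no overlap. Whether fewer cells of a type or less of their RNA per cell was present cannot be told apart in these bulk samples.

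Prg2, the major basic protein of eosinophil granules, fell most of all named genes. It read 11.90, 10.42 and 10.04 on the Mig arrays and 10.65, 8.45 and 9.02 on the Mig+GM arrays. Every pair fell, and the groups overlapped because pair 1 was high in both. Prg2 was 2.67-fold lower (-1.42 ± 0.16, adjusted p = 0.00910). Ear6, an eosinophil ribonuclease with near-identical relatives, was 1.86-fold lower, so 2 of 8 tested eosinophil genes fell and 0 rose, with a median of -0.41. Over all units 0.511% were called lower and 1.2% higher. The eosinophil genes Alox15, Ccr3, Rnase2a and Siglecf did not pass the filter. Fcer1a, the alpha chain of the IgE receptor, read 11.27, 11.13 and 9.53 on the Mig arrays and 9.72, 10.03 and 9.08 on the Mig+GM arrays. It fell in each pair, with overlapping groups because pair 3 was low. Fcer1a was 2.05-fold lower (-1.04 ± 0.17, adjusted p = 0.0279). The beta chain of that receptor, Ms4a2, was 1.75-fold lower (-0.80 ± 0.11, adjusted p = 0.0153). The basophil protease Prss34 and the receptor-like Cd200r3 were 1.90-fold and 1.65-fold lower (adjusted p = 0.0495 and 0.0417). Prss34 and Cd200r3 kept their calls in only 4 and 6 of 16 alternative settings. Of 28 tested mast cell and basophil genes 4 fell and 0 rose, against 0.511% and 1.2% of all units, with a median of -0.29. In this list 9 genes had a positive change, and at an unadjusted p under 0.05 in limma 15 were lower and 3 higher. Their summed signal (67062, 71625 and 56892 in Mig, 41646, 52374 and 52641 in Mig+GM) was lower in each pair without overlap. Gzmb and the mast cell protease genes Mcpt1, Mcpt2, Mcpt4, Tpsab1 and Tpsb2 did not pass the filter. None of the 22 megakaryocyte genes was called by limma, and their median was -0.53, with 15 lower and 0 higher at an unadjusted p under 0.05. Of all 10769 units, 818 were lower and 766 higher at that unadjusted p. Without pair 1 the medians were -0.24 for the erythroid, -0.33 for the eosinophil, -0.17 for the mast cell and -0.22 for the megakaryocyte list. With arrays scaled to one median, which by itself lowered the median of all units to -0.10, they were -0.52, -0.53, -0.43 and -0.65, and 0 members were called. The calls changed with the pair left out, in fits with fewer residual degrees of freedom. Without pair 2, 0 members of the 4 lists were called, and 0 of all units were called lower. Without pair 3, 14 erythroid, 14 mast cell, 14 megakaryocyte and 4 eosinophil genes were called lower, as were 287 of all 10769 units. Among other large falls were Abcb4, a phospholipid transporter (1.86-fold), Ets1, a transcription factor (1.81-fold), Nqo1, a quinone reductase (1.81-fold, another probe not called), Pheta2, an endosomal protein (1.77-fold), and Acss1, a mitochondrial acetate enzyme (1.81-fold).

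**Figure D3:**
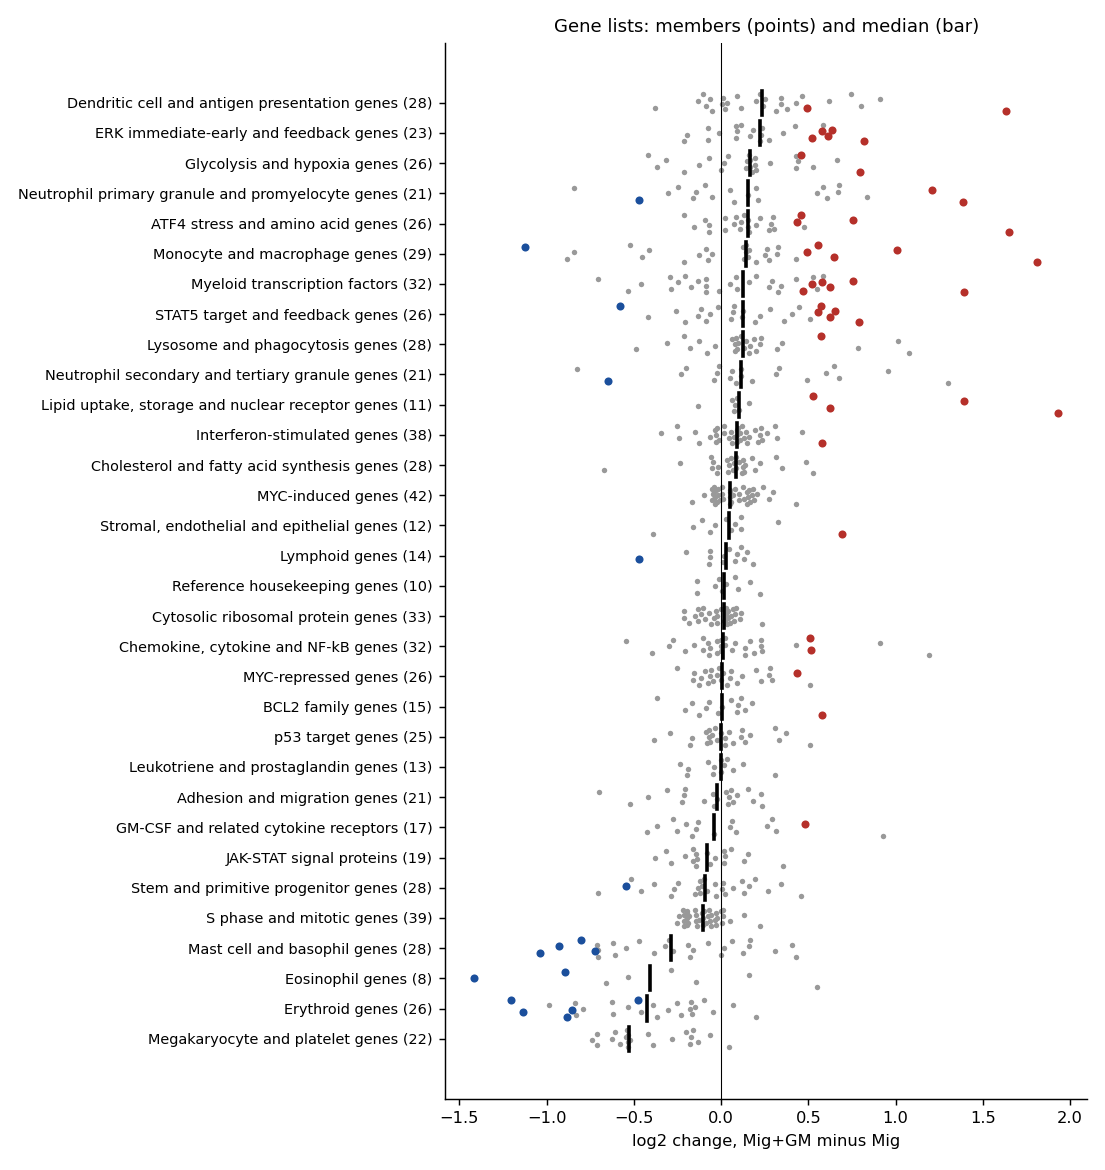
Each point is a tested member of a gene list, placed by its log2 change with GM-CSF (x axis), red where called higher, blue where called lower and grey where not called, with the list's median as a bar and the number tested in brackets. The lists share some genes. The medians of the megakaryocyte (-0.53), erythroid (-0.43), eosinophil (-0.41) and mast cell (-0.29) lists lie to the left, and all 4 are nearer 0 without pair 1.

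**Figure D4:**
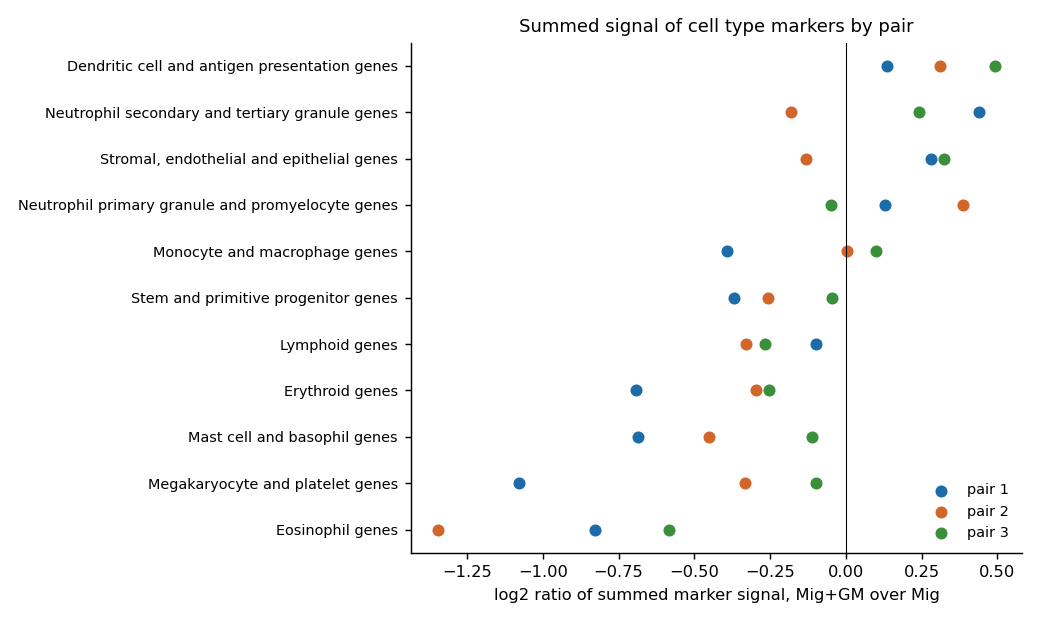
Log2 ratio of the summed marker signal, Mig+GM over Mig (x axis), for each pair (points) and marker list (rows). All 3 pairs lie below 0 for the stem cell, lymphoid, erythroid, mast cell, megakaryocyte and eosinophil lists and above 0 for the dendritic cell list, while the monocyte list runs from -0.39 in pair 1 to 0.10 in pair 3.

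Of 28 tested stem and primitive progenitor genes 0 rose and 1 fell, with a median of -0.09 that was 0.02 without pair 1. Over all units 1.2% were called higher and 0.511% lower, so 1 call in a list says little about that list. Mllt3, a cofactor that maintains human stem cells, read 8.14, 8.13 and 8.47 on the Mig arrays and 7.54, 7.55 and 8.01 on the Mig+GM arrays. The Mig+GM arrays were all below the Mig arrays, and Mllt3 was 1.46-fold lower (-0.54 ± 0.09, adjusted p = 0.0224), with other probes not called. Cd34, the surface marker of progenitors, read 7.73, 7.83 and 7.82 on the Mig arrays and 7.995, 8.08 and 8.11 on the Mig+GM arrays. The groups did not overlap, but the change was small and not called (0.27 ± 0.08, adjusted p = 0.166). Of the remaining lists, 1 of 15 BCL2 family genes rose (Bcl2a1d, 1.49-fold, near-identical to its copies and above background on only 1 of 3 Mig arrays), 1 of 28 lysosome and phagocytosis genes (Ctsz, a cathepsin, 1.49-fold), 1 of 26 MYC-repressed genes (Gadd45b, 1.35-fold) and 1 of 12 stromal genes (Acta2, smooth muscle actin, 1.61-fold, with other probes not called). The lymphoid list had 1 fall, Nkg7, in 14 genes. In the p53 target (25 tested), leukotriene and prostaglandin (13), adhesion (21) and housekeeping (10) lists limma called 0 genes; at an unadjusted p under 0.05 they held, in that order, 3, 1, 2 and 1 higher and 1, 1, 4 and 0 lower.

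Over all 10769 units, 157 were called higher and 66 lower without pair 1, 6 and 0 without pair 2, and 305 and 287 without pair 3. Most list counts changed with the pair left out, in fits with fewer residual degrees of freedom, and so did some medians. That of the lipid uptake list was 0.19 without pair 1 or pair 2, that of the dendritic cell list 0.13 without pair 3, that of the ATF4 list 0.26 without pair 2, and that of the primary granule list 0.09 without pair 2 and 0.28 without pair 3. Without pair 2, Lpl, Tlr2 and Batf3 were the only members called in any list. Without pair 3, 11 myeloid transcription factors rose and 3 fell, 5 dendritic cell genes rose and 1 fell, 7 macrophage genes rose and 6 fell, 8 primary granule genes rose and 2 fell, 6 secondary granule genes rose and 2 fell, 6 glycolysis and hypoxia genes rose and 2 fell, and 5 stem cell genes fell. Without pair 1, 7 dendritic cell genes rose and 0 fell, 4 primary granule genes rose and 1 fell, and 1 glycolysis and hypoxia gene rose. The STAT5 list had 6 rises and 1 fall without pair 1 and 7 rises and 2 falls without pair 3, the ERK list 6 and 5 rises, and the lipid uptake list 3 and 4 rises. In the authors' normalized values with 50 added 0 of all units were called, and so no member of any list. With nothing added, 97 of all 10769 units were called higher and 36 lower. The STAT5 list then had 4 rises and 1 fall. The ERK, lipid uptake, macrophage and myeloid transcription factor lists had 4, 3, 4 and 4 rises, and the dendritic cell and ATF4 lists 2 each. The erythroid, mast cell and eosinophil lists had 2 falls each.

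The response was set against that of RE cells in a fit over all 12 arrays, which gave the difference between the 2 GM-CSF effects; the 2 effects share no arrays. The difference was called for 74 of 12102 units (0.611%), and 10 of the 184 units called in Mig cells were among them. For the others, a difference was not shown, which does not show that the effects were alike. The fitted change in RE cells had the same sign as in Mig cells for 133 of the 184. The share over all units was not computed, so this count is no measure of agreement. The 184 were also picked on the same Mig arrays that enter the difference. Of the 10 genes with a called difference, Gpr84 had a log2 change of 1.65 in Mig and -0.36 in RE cells, Bcat1 of 1.58 and 0.22, and Oas1g of 0.57 and -0.10. The log2 change of Sphk1 was -1.12 in Mig and 1.09 in RE cells, that of Gadd45g -0.57 and 0.46, and that of Mllt3 -0.52 and 0.47. The other 4, named here only after their values were seen, were Cytip (0.90 in Mig and -0.23 in RE cells), Milr1 (0.95 and -0.18), Mboat1 (-0.496 and 0.47) and Stx3 (-0.42 and 0.69). Lpl (1.90 and 1.25), Prg2 (-1.41 and -1.14) and Cish (0.78 and 0.70) had no called difference. Within this fit, whose replicate block was shared by all 4 groups, 2 units were called for GM-CSF in Mig cells, Batf3 and Bcat1. The count of 74 was 28 without the block, 7 with arrays scaled to one median, and 28, 0 and 61 without replicates 1, 2 and 3 (750 at an unadjusted p under 0.05 without replicate 2).

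**Figure D5:**
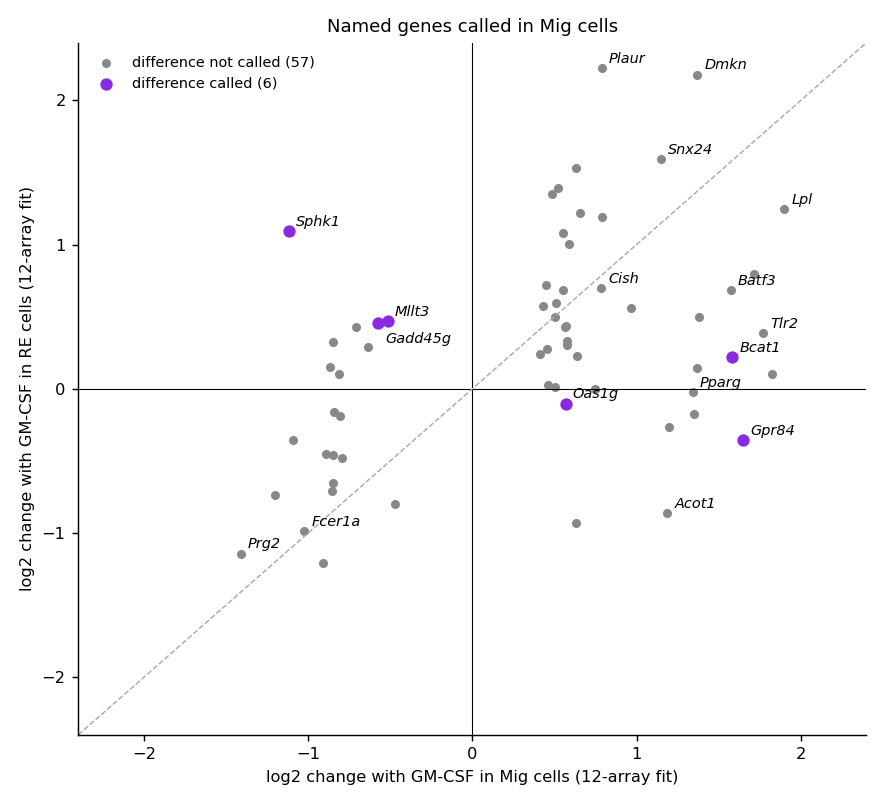
Log2 change with GM-CSF in Mig cells (x axis) and in RE cells (y axis), from the fit over 12 arrays, for 63 of the genes called in Mig cells, those picked by the naming rule, with equal change on the dashed line. The 6 of them with a called difference are in purple, and Sphk1, Gadd45g and Mllt3 lie on opposite sides of 0.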

How the data were processed

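Labels name each group and replicate number, and all 12 arrays were placed; 0 columns of values were left unused. The deposited table used holds bead-summarised signal intensity on a linear scale, before normalization, per the labels' array description and the values. For the bead summarisation, software was not given in the sources used here. Intensity in the other deposited table had already been normalized by the authors, with no method named in the labels; each column ranks probes as the unnormalized table does (rank correlation 1). Its medians on the 6 arrays are 80.1, 79.7 and 80.7 for Mig and 78.6, 79.1 and 79.9 for Mig+GM.

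Signals of the 6 arrays were corrected with normexp (offset 50), then quantile-normalized, and log2 values were taken (limma 3.58.1, R 4.3.3). The offset makes fold changes of dim probes smaller. The tables hold no detection p-values, so background was estimated from the lower flank of each array's own signals (one-sided p of 0.05), and probes above it on at least 3 of the 6 arrays were kept (14495 of 25697). The choice of filter came after seeing the data: it was first set on log2 signals and then changed, after its counts were known, to come closer to an earlier analysis of these data, and the first version is among the alternatives. The annotation named 1 gene for 23978 probes and none for 1719. Genes without a named probe, among them Kit and Csf1r, and Flt3, which did not pass the filter, were not analysed here.

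limma's lmFit and eBayes were fitted with treatment and replicate number as terms, two-sided, with Benjamini-Hochberg adjustment over all 10769 units at 0.05. Errors are standard errors of the model. The pairing was taken from the replicate numbers in the titles and checked by the correlation of deviations from group means. The difference from RE cells came from a 12-array fit with a replicate block over 12102 units. The paired test was run on simulated data with independent errors and planted changes larger than the median called change. That run says nothing on the choice of pairing or scaling, or on smaller changes. Named genes are the 15 largest called rises and 15 largest called falls, 24 genes chosen by symbol and up to 4 called members of smallest p in each of 32 gene lists. Single list members named only as absent from the filter were chosen after their values were seen. The members, lists and tests were chosen with earlier results of these data known. Alternatives are given at the end.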

Additional observations from a re-analysis of the deposited data

Results flagged for a closer look

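Among the 63 genes picked by the naming rule and called in Mig cells, 6 had a GM-CSF effect in Mig cells that differed from that in RE cells by the interaction test over 12 arrays (limma, adjusted p under 0.05). The difference, Mig minus RE on the log2 scale, was 2.00 for Gpr84 (adjusted p = 0.0352), 1.37 for Bcat1 (adjusted p = 0.0420) and 0.67 for Oas1g (adjusted p = 0.0462). It was -2.21 for Sphk1 (adjusted p = 0.0363), -1.03 for Gadd45g (adjusted p = 0.0326) and -0.98 for Mllt3 (adjusted p = 0.0363). Other probes of Bcat1, Oas1g, Gadd45g and Mllt3 were not called for GM-CSF in Mig cells. These genes were picked on the same Mig arrays that enter the difference. Without replicate 2, limma called 0 units for this difference.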

How the results depend on the processing

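Against 129 rises and 55 falls, limma called 0 and 0 with no replicate block (the paired design is the main one), 2 and 0 in the 12-array fit with a shared replicate block, 3 and 0 with arrays scaled to one median, and 0 and 0 in the authors' normalized values with 50 added. It called 72 and 24 with a normexp offset of 16, 85 and 32 with probes above background on all 6 arrays, and 10 and 2 with a minimum fold of 1.2. Falls numbered 95 with no filter on dim probes and 31 with the mean of a gene's probes. Leaving out one replicate pair gave 6 to 305 rises and 0 to 287 falls. Alternatives added after seeing the data gave 42 and 12 with a replicate block of its own in each kind of cell, 97 and 36 in the authors' values with nothing added, and 134 and 56 with the background limit as first set, on the log2 scale (9494 units tested). The difference between Mig and RE cells was called for 28 units with no replicate block, 7 with one median, and 0 to 61 when a replicate was left out. Of the 184 units, all that were tested again kept their sign in each alternative, which was largely set beforehand by their moving the same way in every pair. The 63 called named genes kept their call in 570 of their values under alternatives and lost it in 434, with no reversal. The 20 others gained a call in 10 values. The fit had 3 pairs and 2 residual degrees of freedom before moderation, and fewer when a pair was left out. Dim probes such as Tnf have only a bound.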
